A study of Homo sapiens with 6 samples.

Results

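The 4 human genes of the myocyte enhancer factor 2 (MEF2) family, MEF2A, MEF2B, MEF2C and MEF2D, were examined for chromatin accessibility in RH30 rhabdomyosarcoma cells with and without MyoD. Peaks of all libraries that overlapped or adjoined were merged into regions, and a region belonged to a MEF2 gene when the summit of its strongest peak lay in the gene body or within 50 kb of it. By this rule 58 of 105569 regions were assigned, 12 to MEF2A, 19 to MEF2B, 16 to MEF2C and 11 to MEF2D. In each gene the regions are numbered in the order of the chromosome.

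The assay for transposase-accessible chromatin with sequencing (ATAC-seq) marks open DNA, into which the Tn5 transposase inserts adapters. The cells were RH30, an established cell line of fusion-positive (alveolar) rhabdomyosarcoma. The vector group holds 3 libraries of cells with Cas9 and a scramble guide, and the MyoD-deleted group 3 libraries of cells with Cas9 and guides against MyoD, so both groups carried Cas9 and a guide. The libraries are labelled as biological replicates of 1 cell line, and the p-values below measure the spread between these libraries only. In the study, lentiviral Cas9 cells were used after antibiotic selection, and for xenografts clones of such cells were selected. Transient Cas9 cells were cloned, and which route gave the ATAC-seq cells was not separately stated. The study's text also names RH30-SR, a derivative with an inhibitor of NF-κB, whereas the labels name RH30. A pool may mix edited and unedited cells, and fewer cells with an open region cannot be told apart from less opening per cell.

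MEF2 proteins are transcription factors that bind an AT-rich sequence, the MEF2 box, through a MADS domain and act as homodimers and heterodimers of the family members. In the muscle lineage they work together with MyoD and the other myogenic basic helix-loop-helix factors, which bind E boxes, and the enhancers of muscle genes often hold both kinds of site. MEF2C and MEF2D take part in the differentiation of skeletal muscle, MEF2A is found in many tissues, and MEF2B is best known from germinal centre B cells. Class IIa histone deacetylases repress MEF2 proteins, and calcium-dependent and mitogen-activated kinases relieve this repression or activate MEF2 directly.

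The libraries held 63140 to 74121 peaks in the vector group and 73745 to 80608 in the MyoD-deleted group, and 47885 regions had a peak in all 6. The lists give no read totals, so depth is known only through the smallest background of a library, 2.22 to 3.41 fragments in vector and 2.27 to 2.35 in MyoD-deleted libraries. A peak covered the 5′ end of all 7 muscle and rhabdomyosarcoma markers (MYOD1, MYOG, DES, FGFR4, MYCN, CDH15 and MYF5) in every library. Of 6 markers of other cells, PTPRC, CDH1, PECAM1, CDH5 and ALB had none. EPCAM had a peak of 22 to 36 fragments in 2 vector and 3 MyoD-deleted libraries. The 7 muscle and rhabdomyosarcoma markers ranged widely, with 47 to 86 fragments at MYF5, the lowest of them, and 389 to 507 at FGFR4. At MYOD1 itself, where accessibility does not show whether the protein was lost and so does not check the labels, the 2 regions shared by all libraries were lower in centred height by 0.55 and 0.49 on the log2 scale (limma, adjusted p = 0.0017 and 0.0021), whereas by rank neither passed the test (adjusted p = 0.612 and 0.408).

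The sequences shown here belong to the regions on which the results below turn: the 5′ end of MEF2C and a distal MEF2D region that had a peak in vector cells only, MEF2A region 2 and MEF2D region 6, which were lower in summit height after deletion of MyoD, MEF2A region 9, which was higher, and a MEF2C region with MEF2 boxes. Each is read from hg38 with positions counted from 1, on the plus strand. Capitals mark an E box of the form CAGCTG, an E box of the form CAGGTG or its complement CACCTG, an AP-1 site (TGACTCA or TGAGTCA) or a MEF2 box. Where the summit lay in an annotated untranslated exon, only 30 bases around the match are given.
MEF2C region 14, chr5:88904152-88904181: caggccgaggtgCACCTGtttctgtcactc
MEF2D region 11, chr1:156525520-156525549: gcctggaagagtCAGCTGtaagggatgaga
MEF2A region 2, chr15:99546629-99546829: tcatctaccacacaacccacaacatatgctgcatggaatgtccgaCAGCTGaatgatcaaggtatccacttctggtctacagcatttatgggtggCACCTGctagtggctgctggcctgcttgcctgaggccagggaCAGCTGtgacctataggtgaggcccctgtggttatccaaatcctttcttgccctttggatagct
MEF2A region 9, chr15:99708785-99708985: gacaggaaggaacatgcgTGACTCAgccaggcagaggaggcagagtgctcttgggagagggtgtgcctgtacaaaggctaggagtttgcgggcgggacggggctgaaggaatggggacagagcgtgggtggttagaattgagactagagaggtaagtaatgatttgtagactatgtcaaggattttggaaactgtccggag
MEF2D region 6, chr1:156489152-156489352: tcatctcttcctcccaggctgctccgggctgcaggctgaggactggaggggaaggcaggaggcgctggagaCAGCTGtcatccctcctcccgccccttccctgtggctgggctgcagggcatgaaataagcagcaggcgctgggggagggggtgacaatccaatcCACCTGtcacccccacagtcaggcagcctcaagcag
MEF2C region 8, chr5:88785894-88786094: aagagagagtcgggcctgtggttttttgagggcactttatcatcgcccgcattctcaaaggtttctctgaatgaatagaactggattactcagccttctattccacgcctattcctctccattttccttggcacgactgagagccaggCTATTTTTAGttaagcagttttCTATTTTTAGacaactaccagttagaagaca
In MEF2A region 2 a CACCTG centred 2.5 bp from the summit stands between CAGCTG boxes 52.5 bp before and 39.5 bp after it. MEF2C region 8 holds the same MEF2 box letters at 52.5 and 74.5 bp after its summit, and no E box of either form lies within 100 bp of that summit.

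Most of the open chromatin around the MEF2 genes was present in both groups. Of the 58 regions, 32 (55.2%) had a peak in all 6 libraries, against 45.4% of all regions, and 9 (15.5%) had a peak in 1 library only, against 19.3%. A single MEF2 region was gained, with a peak in 3 of 3 MyoD-deleted and 0 of 3 vector libraries, where 4.56% of all regions were gained. There were 2 lost regions, with a peak in 3 of 3 vector and 0 of 3 MyoD-deleted libraries, where 1.78% of all regions were lost. The other 23 regions had peaks in some libraries, 14 of the 58 having them in more MyoD-deleted than vector libraries and 10 in more vector than MyoD-deleted libraries, gained and lost regions included.

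**Figure D1:**
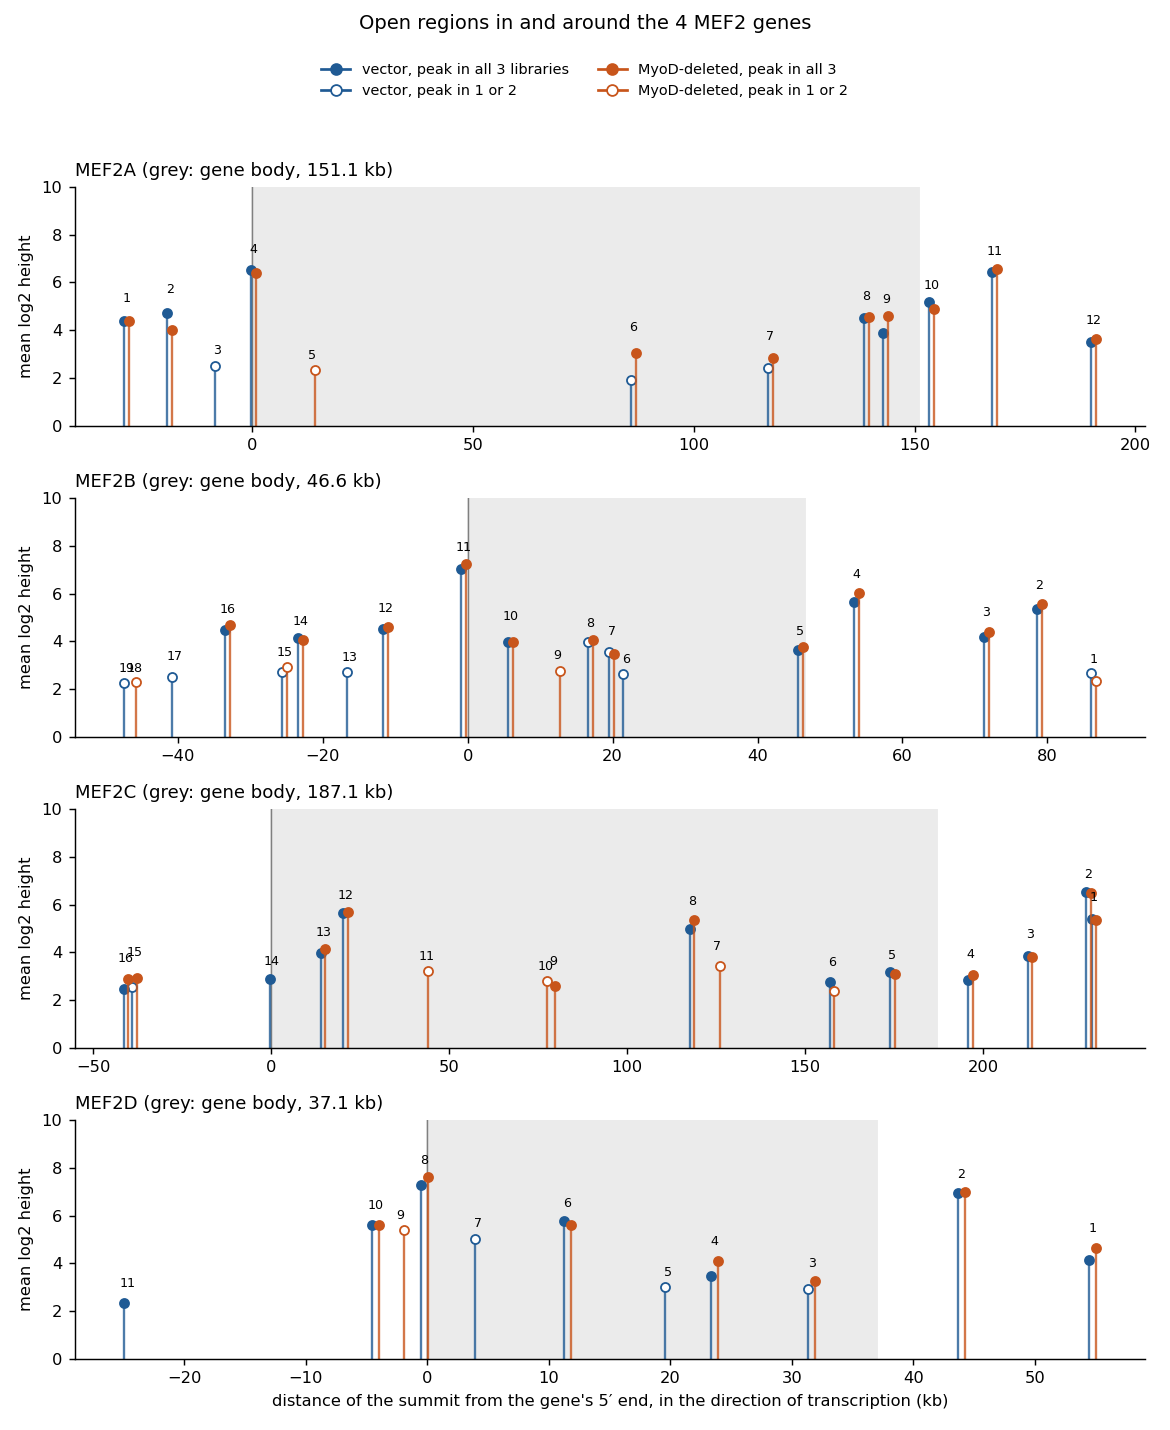
Position of the 58 regions in the 4 genes. The x axis gives the distance of the summit from the gene's 5′ end in kb, the y axis the mean log2 summit height over the smallest background of each library, taken over the libraries with a peak. Filled points have a peak in all 3 libraries of the group. MEF2C region 14, next to the zero line, and MEF2D region 11 have a vector point only, and MEF2C region 9 has a MyoD-deleted point only.

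The 32 regions present in all libraries were compared in 2 ways. In the main comparison the highest fold enrichment of a region over its local background was ranked among the shared regions of its library and given as a percentile, and limma was run on the inverse-normal ranks over all 47885 shared regions. By rank, 0 of the 32 MEF2 regions were higher and 0 were lower in MyoD-deleted cells at an adjusted p under 0.05, against 4.12% and 4.67% of all shared regions. The smallest adjusted p was 0.0969, at MEF2A region 9, the only region with an unadjusted p under 0.05. In the second comparison the number of fragments at the summit was taken over the smallest background of the library, on the log2 scale, and centred on the median shared region. By this height 1 MEF2 region was higher and 3 were lower, against 11.4% and 12.8% of all shared regions, and in 1 of the 3, MEF2A region 10, the summits of the groups lie at different places. Without centring, when the median region of MyoD-deleted libraries stood 0.19 higher, 5 MEF2 regions were higher and 1 was lower, against 24.7% and 8.03%. Fold enrichment did not overlap between the groups in 5 of the 32 regions, against 35.8% of all shared regions, and centred height in 8, against 37.9%.

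**Figure D2:**
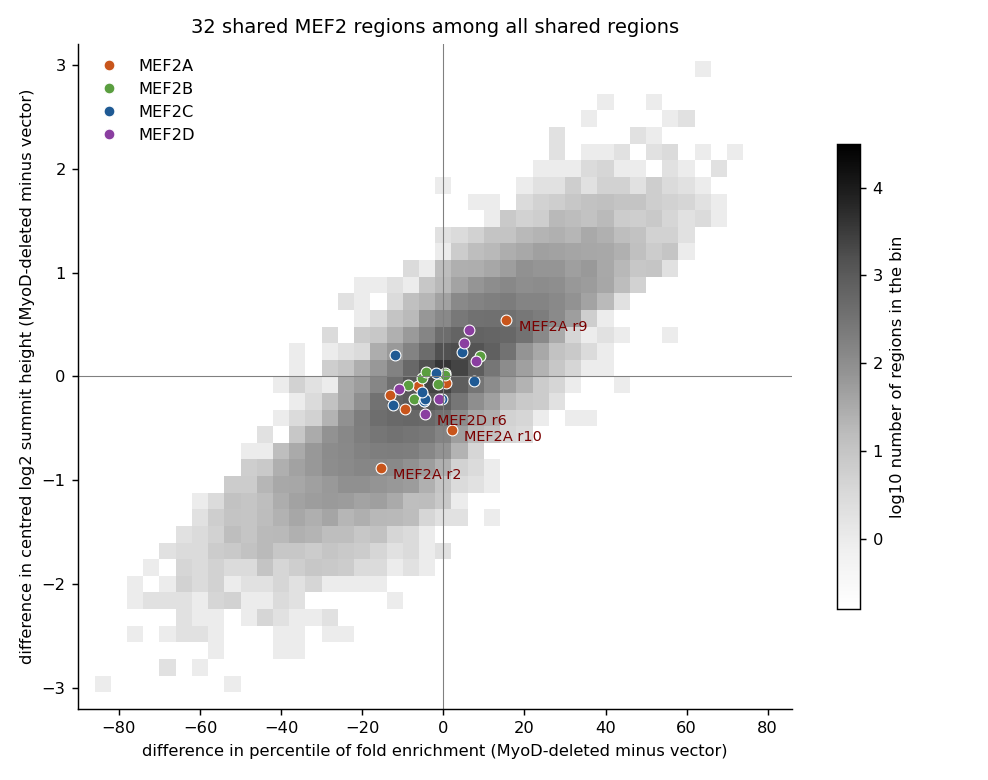
Change of the 32 shared MEF2 regions (coloured points) among all 47885 shared regions (grey, log10 number of regions in a bin). The x axis gives the difference in percentile and the y axis the difference in centred log2 summit height, both MyoD-deleted minus vector. The 4 named points passed the test of height, from -0.886 at MEF2A region 2 to 0.538 at MEF2A region 9, and most other points lie close to the centre.

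MEF2C (ENSG00000081189.17, chr5:88717117-88904257, minus strand) is a gene of 187.1 kb whose 34 annotated coding transcripts start at several separate places. Its outermost 5′ end was accessible in vector cells and had no peak in MyoD-deleted cells. MEF2C region 14 (chr5:88903748-88904823) covers the first exons of 5 coding transcripts and the 5′ end of the gene, and a CACCTG lies 26.5 bp from its summit. In vector replicates 1, 2 and 3 its summit held 24, 16 and 22 fragments, a fold enrichment of 5.67, 5.27 and 6.16. None of the 3 MyoD-deleted libraries had a peak there. At their smallest background these libraries held peaks from 8 fragments upwards. On the scale of log2 height over the smallest background the vector values were 2.82, 2.85 and 3.01. The lowest peaks kept at that background in MyoD-deleted libraries stood at 1.77 to 1.82. An uncalled region has no value, so the size of the fall is not known, and a partial fall could also leave no peak. Region 14 was lost under each of the alternatives for peaks. It was also lost with each library left out, which the definition of a lost region largely fixes in advance. Loss at the 5′ end of a coding gene was rare. Of 9848 regions that cover the 5′ end of a protein-coding gene, 14 (0.142%) were lost and 55 (0.558%) were gained, while 93.8% had a peak in all 6 libraries. These shares are taken over 5′ ends with peaks of any height, and no share was taken among peaks as low as region 14. Region 14 was a low peak for a promoter, and its mean height lay at percentile 40.4 of the lost regions.

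Further start sites of MEF2C had a peak in every library. MEF2C region 12 (chr5:88882588-88884701), 20.9 kb inside the gene, covers the 5′ ends of 12 coding transcripts, among them the canonical one. Its summit held 164, 106 and 146 fragments in vector and 117, 126 and 109 in MyoD-deleted libraries. The percentile was 41.3 ± 7.6 (SD, n = 3) in vector and 36.1 ± 8.15 in MyoD-deleted libraries, with overlapping values (adjusted p = 0.696), and the centred height differed by -0.15 (adjusted p = 0.436). MEF2C region 8 (chr5:88784776-88786405), in intron 3 of the canonical transcript, covers the start of 2 shorter coding transcripts and carries the pair of MEF2 boxes shown above. Fold enrichment was 10.1, 9.79 and 9.76 in vector and 9.69, 8.96 and 9.74 in MyoD-deleted libraries, so that every MyoD-deleted value lay below every vector value, by little. The percentile of 60.7 ± 2.12 against 48.9 ± 7.21 (SD, n = 3 each) did not pass the test (adjusted p = 0.265), and the centred height pointed the other way (0.20, adjusted p = 0.394). MEF2C region 13 (chr5:88889158-88890161), between the outer and the canonical start, stood at percentile 39.5 ± 6.1 and 47.1 ± 12.5 (adjusted p = 0.587). MEF2C region 3, past the 3′ end of the gene, stood at percentile 59.1 in vector and 54.6 in MyoD-deleted libraries (adjusted p = 0.726).

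Intron 1 of MEF2C held the gained region. MEF2C region 9 (chr5:88825045-88825455) lies 79.1 kb from the outer 5′ end and 682 bp from the nearest coding transcript start. It had 10, 14 and 19 fragments in MyoD-deleted replicates 1, 2 and 3 and a fold enrichment of 3.37, 4.58 and 5.80. No vector library had a peak, and the values lie near what a library could call at all. Its mean height was at percentile 11.2 of the gained regions, and its 201 bases around the summit held none of the motifs searched. It was not called gained when peaks needed a −log10 q of at least 5 or when every library was limited to the same number of peaks. A further peak in intron 1, MEF2C region 10, lies within 500 bp of a coding transcript start and was present in MyoD-deleted replicate 2 only.

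MEF2D (ENSG00000116604.19, chr1:156463727-156500779, minus strand) had a tall promoter peak in every library. MEF2D region 8 (chr1:156499694-156501620) covers the 5′ ends of 2 coding transcripts and held 425, 386 and 471 fragments in vector and 409, 462 and 488 in MyoD-deleted libraries. These counts overlap, whereas fold enrichment did not (6.42, 8.47 and 7.58 in vector against 8.54, 9.52 and 9.34 in MyoD-deleted libraries). Neither the percentile (37.6 ± 10.9 against 45.6 ± 1.03, SD, n = 3 each, adjusted p = 0.517) nor the centred height (0.15, adjusted p = 0.344) passed the test, and without centring the height was higher by 0.34 (adjusted p = 0.047). The local background was high as well, at 44.7 to 65.3 fragments. MEF2D region 6 (chr1:156488942-156490860) lies in intron 1 and covers the start of another coding transcript, 1347 bp from its summit. Close to the summit it holds a CAGCTG and a CACCTG. Its summit had 163, 131 and 163 fragments in vector and 100, 109 and 131 in MyoD-deleted libraries. Its centred height was 1.18 ± 0.153 in vector and 0.82 ± 0.115 in MyoD-deleted libraries (SD, n = 3 each) and fell by 0.36 on the log2 scale (adjusted p = 0.0424). This call was lost without centring (-0.17, adjusted p = 0.381) and when any library other than vector replicate 1 was left out (adjusted p from 0.05002 to 0.153), and the percentile differed by -4.6 only (adjusted p = 0.688).

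The lost region near MEF2D is distal. MEF2D region 11 (chr1:156525197-156526156) lies 24.7 kb upstream of MEF2D, in the 3′ untranslated exon of IQGAP3, a neighbouring gene, although MEF2D has the nearest 5′ end. It held 19, 9 and 16 fragments in vector libraries, a fold enrichment of 3.88, 3.09 and 4.26, and no MyoD-deleted library had a peak. A CAGCTG, shown above, stands 56.5 bp after its summit. Its mean height was at percentile 6.16 of the lost regions, and it was no longer called lost at a −log10 q of at least 5, with equal numbers of peaks or when a peak had to cover 50% of the region. Among the other MEF2D regions, region 1 and region 2 past the 3′ end stood at percentile 60.1 and 66.1 in vector and 65.3 and 55.3 in MyoD-deleted libraries (adjusted p = 0.658 and 0.244).

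**Figure D3:**
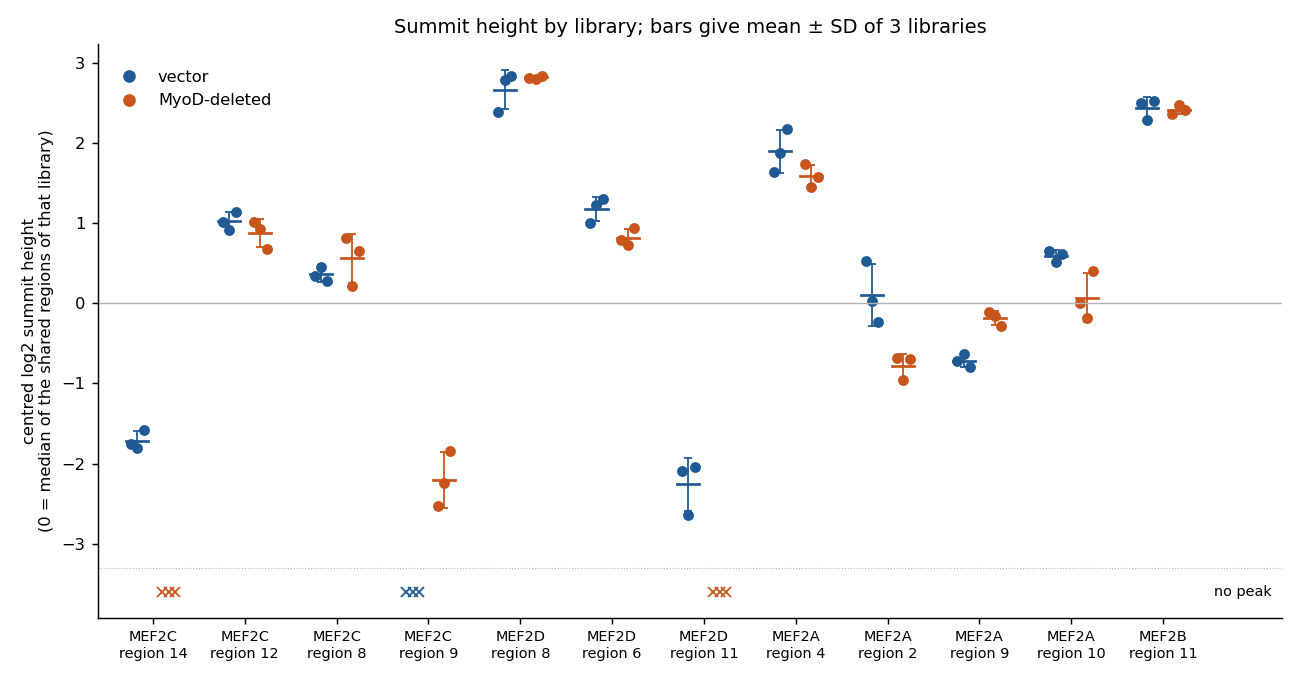
Centred log2 summit height (y axis, 0 is the median shared region of the library) of 12 MEF2 regions in each library. At MEF2A region 10 the summits of the groups lie at different places. Points are libraries, bars give mean ± SD of 3 libraries, and crosses mark libraries with no peak. Vector and MyoD-deleted points do not overlap at MEF2A regions 2, 9 and 10 and at MEF2D region 6, and MEF2C region 14, MEF2C region 9 and MEF2D region 11 have points in 1 group only.

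MEF2A (ENSG00000068305.19, chr15:99565417-99716488, plus strand) had a promoter peak in every library, and regions to either side of it passed the test of height. MEF2A region 4 (chr15:99564933-99566613) covers the 5′ ends of all 14 coding transcripts and held 252, 206 and 299 fragments in vector and 193, 180 and 203 in MyoD-deleted libraries. The percentile of 55.8 ± 3.57 against 46.4 ± 3.17 (SD, n = 3 each) did not overlap between the groups, whereas fold enrichment did. Neither the percentile (adjusted p = 0.364) nor the centred height (-0.31, adjusted p = 0.0895) passed the test, although height passed when vector replicate 1 was left out (adjusted p = 0.00451).

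The largest change in height of any shared MEF2 region was at MEF2A region 2 (chr15:99546270-99547394), 18.7 kb upstream of the promoter. Vector libraries had 117, 57 and 56 fragments at its summit and MyoD-deleted libraries 36, 34 and 42. Every MyoD-deleted value lay below every vector value, and vector replicate 1 stood well above the other vector libraries. The centred height of 0.11 ± 0.39 in vector and -0.78 ± 0.153 in MyoD-deleted libraries (SD, n = 3 each) fell by 0.89 on the log2 scale (adjusted p = 0.00312). It remained lower with each library left out, by 0.67 without vector replicate 1 (adjusted p = 0.0103), and without centring (-0.69, adjusted p = 0.00808). The local background fell alongside, from 4.48 to 7.91 fragments in vector to 2.54 to 2.88 in MyoD-deleted libraries, so that fold enrichment overlapped between the groups (13.2, 10.6 and 10.1 against 9.53, 9.90 and 11.7) and the percentile did not pass the test (-15.4, adjusted p = 0.233). Another upstream region, MEF2A region 1 at 28.6 kb, with an AP-1 site 96 bp after its summit, stood at percentile 69.7 and 64.6 (adjusted p = 0.659).

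At the 3′ end of MEF2A a pair of neighbouring regions, 9 and 10, passed the test of height. Their nearest 5′ end is that of LYSMD4, a neighbouring gene, at 24.7 and 14.4 kb. MEF2A has the nearest 5′ end for 5 of its 12 regions. MEF2A region 9 (chr15:99708329-99709311), in intron 10, had 49, 36 and 38 fragments in vector and 54, 59 and 56 in MyoD-deleted libraries, and an AP-1 site lies 79 bp from its summit. Its centred height rose by 0.54 on the log2 scale, from -0.72 ± 0.0797 to -0.18 ± 0.0902 (SD, n = 3 each, adjusted p = 0.0274). The percentile was 13.0 ± 4.4 and 28.6 ± 4.73, with no overlap, but missed the threshold (adjusted p = 0.0969). MEF2A region 10 (chr15:99716993-99719608), just past the 3′ end, had 127, 80 and 101 fragments in vector and 58, 58 and 90 in MyoD-deleted libraries. Its centred height fell by 0.52 (adjusted p = 0.0231), while the percentile did not differ in the same direction (26.7 and 28.7, adjusted p = 0.878), and without centring the difference was -0.33 (adjusted p = 0.139). Its vector summits, spread over 1041 bp, and its MyoD-deleted summits, spread over 149 bp, are separated by 414 bp, so that this height compares different places, and it is the only 1 of the 32 shared MEF2 regions with a gap over 100 bp between the groups. With peaks limited to 100 bp around summits, the stretch at the MyoD-deleted summits counts as gained. Leaving out a library ended the call for region 9 in 4 of 6 cases (adjusted p up to 0.106) and for region 10 in 4 of 6 cases (adjusted p up to 0.119). Inside the gene, MEF2A region 6 in intron 4 and MEF2A region 7 in intron 7, picked after their values were seen, had peaks in 3 of 3 MyoD-deleted libraries and in vector replicate 1 only. Region 6 held 17, 26 and 16 fragments in MyoD-deleted libraries and 13 in vector replicate 1, and region 7 held 19, 20 and 12 against 18. Without vector replicate 1 both count as gained. The top percentile of all MEF2 regions, 95.1 in vector and 95.6 in MyoD-deleted libraries (adjusted p = 0.991), belongs to MEF2A region 11, which covers the 5′ end of LYSMD4.

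MEF2B (ENSG00000213999.17, chr19:19145567-19192131, minus strand) had the most regions, but few of them lie at its own starts. It shares a compact stretch of chromosome 19 with other genes, and 13 of its 19 regions lie outside the gene body. MEF2B has the nearest 5′ end for 5 of the 19. The start of its canonical transcript was hardly accessible. MEF2B region 6 (chr19:19170075-19170362) covers the 5′ ends of 4 coding transcripts and had a peak in vector replicate 1 only, with 21 fragments and a fold enrichment of 2.53. The fifth coding transcript starts in MEF2B region 11 (chr19:19191917-19193208), a region that also covers 5′ ends of BORCS8 and, on the opposite strand, of RFXANK. Region 11 held 460, 273 and 380 fragments in vector and 300, 366 and 363 in MyoD-deleted libraries, at percentile 90.6 ± 2.84 and 85.4 ± 1.13 (SD, n = 3 each, adjusted p = 0.25). Its fold enrichment of 13.8 to 14.5 in vector and 13.6 to 14.8 in MyoD-deleted libraries overlapped. MEF2B region 4, at the 5′ end of TMEM161A, stood at percentile 65.3 and 74.3 (adjusted p = 0.326), and MEF2B region 2 downstream at 64.7 and 65.3 (adjusted p = 0.978). At region 4 fold enrichment did not overlap between the groups (10.76, 10.38 and 10.09 in vector against 10.83, 14.17 and 12.88 in MyoD-deleted libraries). Without centring, the height of region 4 was higher by 0.39 (limma, adjusted p = 0.0404). No MEF2B region was gained or lost and none passed the test by rank or by centred height, with a smallest adjusted p of 0.25 and 0.269, 0 of them at an unadjusted p under 0.05 by rank.

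**Figure D4:**
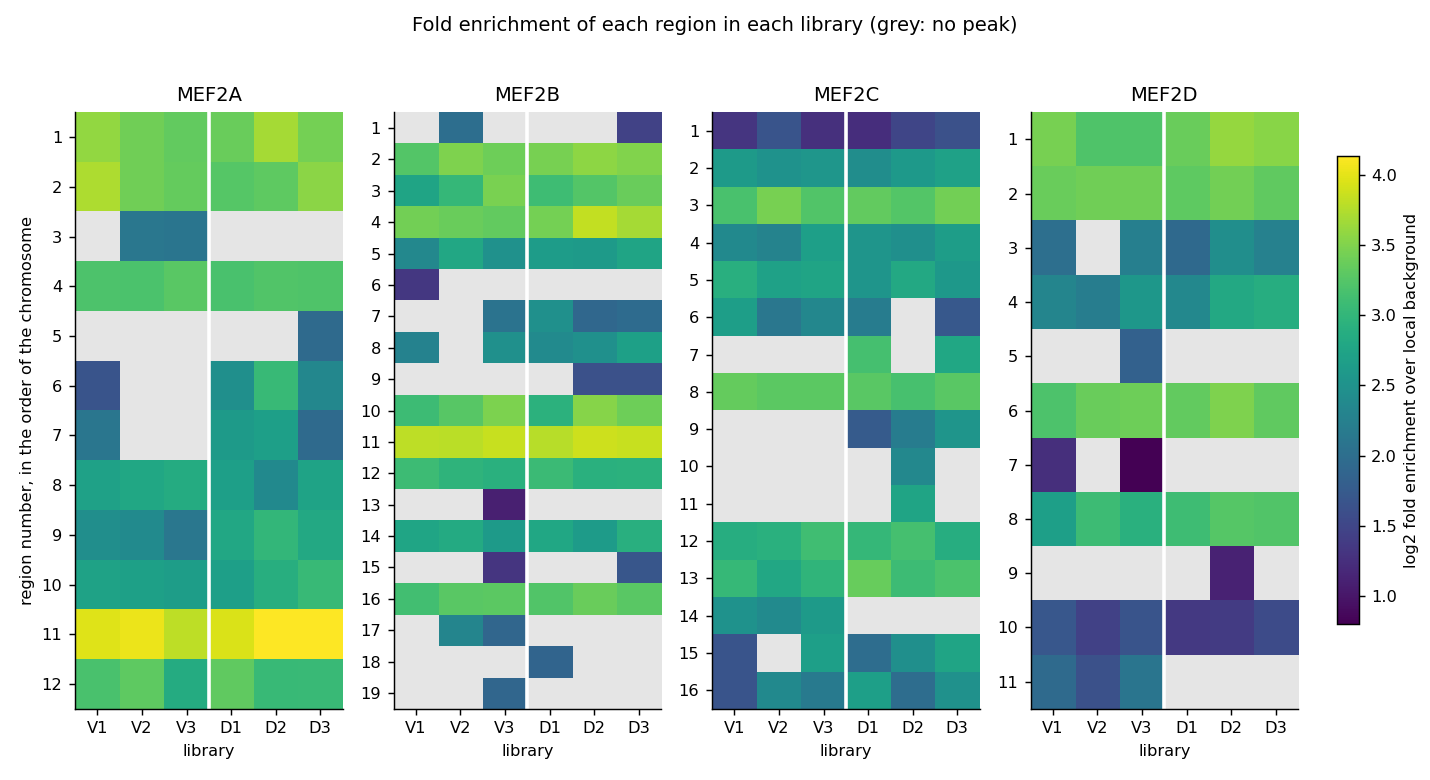
Fold enrichment over local background, on the log2 scale, of each of the 58 regions (rows, by region number) in vector replicates (V1 to V3) and MyoD-deleted replicates (D1 to D3). Grey cells have no peak. MEF2A region 11 and MEF2B region 11 are the brightest rows, and MEF2C region 14 is filled in the 3 vector columns only.

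Over the shared regions of each gene, the median percentile in a library gave the order of the 4 loci. In vector libraries it was 55.9 ± 7.95 for MEF2B (9 regions), 52.7 ± 4.57 for MEF2A (8 regions), 46.2 ± 5.54 for MEF2D (6 regions) and 31.0 ± 3.96 for MEF2C (9 regions; SD, n = 3 each). The 3 upper genes overlapped with their neighbours, whereas the values of MEF2C, 27.7 to 35.4, lay below the lowest value of the others, 40.1. In MyoD-deleted libraries MEF2B was at 51.0 ± 5.42, MEF2D at 50.4 ± 2.05, MEF2A at 44.2 ± 7.08 and MEF2C at 22.4 ± 2.75. The difference between groups was -8.51 for MEF2A (p = 0.2), -4.94 for MEF2B (p = 0.4), -8.64 for MEF2C (p = 0.1) and 4.14 for MEF2D (p = 0.2) by a two-sided exact permutation test, where 0.1 is the smallest p that 3 libraries against 3 allow. The MEF2C values did not overlap between the groups, but with the gene body and 5 kb upstream alone the difference was 0.15 (exact permutation, p = 1). By centred height and the same exact permutation test the differences were -0.23 for MEF2A (p = 0.1), 0.11 for MEF2B (p = 0.6), -0.09 for MEF2C (p = 0.6) and -0.29 for MEF2D (p = 0.1), and for MEF2B and MEF2D the sign was opposite to that of the percentile. Of 9867 genes with at least 5 shared regions, those whose library medians of the rank varied most alike over the 6 libraries included NFKBIA and PPP2CA for MEF2A (Pearson r of 0.983 and 0.982), HS3ST5 and REPS2 for MEF2B (0.992 and 0.984), IQCJ-SCHIP1, ITGA3 and MRNIP for MEF2C (0.982 to 0.996) and PPIE, SIGIRR and PKP3 for MEF2D (0.987 to 0.988). BORCS8-MEF2B, a readthrough gene over the same regions, had an r of 1 with MEF2B. These values of r describe 6 libraries, which share their depth and group with every gene.

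E boxes were found in a minority of the MEF2 regions. Within 100 bp of the summit, 9 of 58 regions (15.5%) held CAGCTG, against 25.1% of all regions, and 9 (15.5%) held CAGGTG or CACCTG, against 15.9%. For comparison, 54.8% of the regions lost anywhere in the genome held CAGCTG and 37.8% held CAGGTG. Both lost MEF2 regions held one of these boxes, CACCTG in MEF2C region 14 and CAGCTG in MEF2D region 11. An AP-1 site was found in 5 MEF2 regions (8.62%), against 17.9% of all regions and 27.4% of gained regions. The MEF2 box was found in 3 regions (5.17%), against 0.607% of all regions, namely in MEF2C region 8, MEF2B region 13 and MEF2D region 9, of which only the first had a peak in more than 1 library. Both strands were searched, the E box and AP-1 letters can share 2 bases at their ends, and a match describes letters in this window, not binding.

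The genes that act on MEF2 proteins and known target genes of MEF2 were described in the same way, from lists chosen with earlier results of these data known. Around 15 partner and kinase genes, 111 regions were shared by all libraries. By rank 0 of these were higher and 5 (4.5%) were lower in MyoD-deleted cells, against 4.12% and 4.67% of all shared regions, and by centred height 12 (10.8%) were higher and 13 (11.7%) lower, against 11.4% and 12.8%. The 5 lower by rank were 1 each around HDAC4 and HDAC5 (class IIa histone deacetylases), CABIN1 (a calcineurin-binding corepressor of MEF2), EP300 (an acetyltransferase and coactivator) and NCOA2 (a steroid receptor coactivator). The CABIN1 region, in the gene body, went from percentile 67.1 ± 10.0 to 19.2 ± 10.5 (SD, n = 3 each, adjusted p = 0.0113). Of all 247 regions around these genes, 11 (4.45%) at 7 of the genes were gained, against 4.56% of all regions. Among them were 4 of the 38 regions around HDAC9, another class IIa deacetylase and the gene with the most regions on this list. A further 2 (0.81%) were lost, at CAMK4 and SIK1, against 1.78%. Around 13 target genes, 94 regions were shared, of which 4 (4.26%) were higher and 4 (4.26%) lower by rank, near the shares of all shared regions. The higher ones were 1 each around CKM, DES, MYOM1 and MB, and the lower ones 1 each around MYOM1 and ACTA1 and 2 around PPARGC1A. By centred height 14 (14.9%) were higher and 23 (24.5%) lower, against 11.4% and 12.8% of all shared regions. The lower ones included 7 of 9 shared regions around MYOG, a myogenic regulatory factor, and 4 of 5 around ACTA1, the skeletal muscle actin gene. Other genes on the list went the other way, with 4 of 7 shared regions higher and 0 lower around MB, and 3 of 10 higher and 1 lower around JUN. Of all 150 regions around the target genes, 4 (2.67%) were gained and 2 (1.33%) lost, the lost ones at MYOG and CKM. A region 0.228 kb upstream of the outermost annotated 5′ end of PPARGC1A, a coactivator of mitochondrial genes, went from percentile 70.7 ± 11.2 to 8.37 ± 3.47 (SD, n = 3 each, adjusted p = 0.00292). At MYOM1, which encodes an M-band protein, a region in the gene body went from 63.3 to 33.3 (adjusted p = 0.0168) and a region upstream from 25.6 to 74.1 (adjusted p = 0.00984). The median percentile difference was 0.31 for the shared partner regions and 1.07 for the shared target regions, against -0.08 for all shared regions and -4.3 for the shared MEF2 regions.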

How the data were processed

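ATAC-seq peaks of 3 vector and 3 MyoD-deleted RH30 libraries were used. According to the methods, paired-end reads were aligned to hg38 with Rsubread, proper pairs were kept, and MACS2 called peaks in each library separately; versions of these tools were not given in the sources used here. The authors deposited for each peak a score (−log10 q times 10), a fold enrichment (the ratio of the summit pileup to the local background within that library), a −log10 p and a −log10 q. The methods name an exclusion list without stating whether it preceded the peak lists, and the authors' comparison of read counts was not used here. An uncalled region has no value in a list.

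The pileup at each summit and its background were solved from the deposited fold enrichment and −log10 p together, as a whole number of fragments and a rate (100% of 436736 peaks, within 0.02 of the −log10 p). Depth is not in the lists, so no counting interval is given. One mitochondrial peak per library was left out. Peaks were merged into regions and assigned to genes of GENCODE 44. Shared regions were tested with limma 3.58.1 in R 4.3.3 (lmFit, eBayes with a trend) on inverse-normal ranks and on summit height, with Benjamini-Hochberg adjustment over 47885 regions, and gene medians with exact permutation. The steps were tested on simulated data, where both tests called most large shifts, but the rank test missed every moderate shift tried and the height test missed most of them. A region that was not called may therefore still differ moderately. The sizes of the simulated shifts that were recovered were chosen after smaller ones had been missed. Ranks were taken among shared regions, a choice made after the data were seen. Regions named are those past an adjusted p of 0.05 by rank or centred height, those gained or lost, those within 500 bp of a coding transcript's 5′ end, and the 3 of each gene with the highest mean rank. Same-numbered libraries did not deviate together (correlations from -0.098 to 0.041), so replicate numbers were not used as pairs. The genes, lists and tests were chosen with earlier results of these data known. Python 3.11.15, pandas 2.3.3, samtools 1.23.1 and bedtools 2.31.1 were used. Some items are not reported here.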

Additional observations from a re-analysis of the deposited data

How the results depend on the processing

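MEF2C region 14 was lost in every alternative that was run for it, although leaving out a library can hardly end such a call. MEF2A region 2 was lower by height with each library left out, without centring, with the replicate block and among regions in at least 2 libraries of each group. Its height was not followed singly under the alternatives for peaks. Over left-out libraries the number of gained regions ran from 1 to 3 and of lost regions from 2 to 4, the highest in both cases without vector replicate 1, when MEF2A regions 6 and 7 were added to the gained and MEF2A region 3 and MEF2B region 17 to the lost regions. Regions higher by height ran from 0 to 1 and lower by height from 1 to 4 (MEF2A region 4 was added without vector replicate 1), and the percentile difference from -0.9999 to 5.23 for MEF2A region 10, from -1.55 to 1.59 for MEF2A region 11 and from -3.53 to 3.12 for MEF2B region 2. The number of gained regions was 0 with equal numbers of peaks and 2 when peaks had to cover 50% of a region (adding MEF2A region 6) or were limited to 100 bp around summits (adding MEF2A region 10), and at a −log10 q of at least 5 the 1 gained region was MEF2A region 6. The number of lost regions was 1 at that −log10 q, with the coverage rule, and in the gene body and 5 kb upstream, where 1 region was lower by height. In place of the rank of fold enrichment, the rank of −log10 p called 1 region higher (MEF2A region 9) and 1 lower (MEF2A region 2), centred height 1 and 3, and uncentred height 5 and 1. The cause of these differences was not tested.

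Signs that changed belonged to differences that had not passed the test in the comparison as reported, although the height of MEF2A region 10, opposite in sign to its percentile, did pass. With uncentred height, the median differed by 0.30 for MEF2B, 0.11 for MEF2C and -0.10 for MEF2D, and single regions by 0.0073 (MEF2A region 1), -0.33 (MEF2A region 10), 0.13 (MEF2A region 11), 0.17 (MEF2B region 11), 0.039 (MEF2C region 12), 0.14 (MEF2C region 13), 0.39 (MEF2C region 8) and 0.070 (MEF2D region 2). With centred height, the values were 0.11 for MEF2B, -0.29 for MEF2D, -0.52 for MEF2A region 10, -0.059 for MEF2A region 11, -0.048 for MEF2C region 13 and 0.20 for MEF2C region 8. By the rank of −log10 p, the percentile differed by -10.1 (MEF2A region 10), -0.67 (MEF2A region 11) and 1.51 (MEF2C region 8). Ranking among all called regions, added after the data were seen, gave 0.27 for MEF2C region 12, 0.21 for MEF2C region 3 and 0.13 for MEF2D region 6. The median percentile differed by 0.15 for MEF2C in the gene body and 5 kb upstream and by -0.039 for MEF2D with peaks limited to 100 bp. Over left-out libraries the centred height difference ran from -0.11 to 0.0033 for MEF2A region 11, from -0.10 to 0.027 for MEF2B region 11, from -0.055 to 0.092 for MEF2B region 2 and from -0.17 to 0.071 for MEF2C region 13. The replicate block called 0 regions higher and 0 lower by rank and 1 higher and 2 lower by height, ending the call at MEF2D region 6 (adjusted p = 0.0533); the shared numbers are not known to pair the libraries.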
